A study of Mus musculus with 6 samples.

Results

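Glycolysis, glucose transport and glycogen turnover were followed here through 40 genes that encode the transporters and enzymes of these pathways, with the tissue isoforms of each step listed side by side. The 40 genes were taken by symbol from a list of these pathways, with earlier results of these data known, and all 40 were among the 18099 genes of the table. RNA had been sequenced from injured Achilles tendon of neonatal mice in both groups, collected, per the study, a week after a transverse cut through the tendon. The Control group (n = 3) held *Ampkα1* fl/fl littermates, which carry the floxed alleles without Cre, and the LysM-Cre group (n = 3) held *LysM-Cre; Ampkα1* fl/fl mice. In the latter, Cre is driven by the lysozyme M locus and acts in macrophages, monocytes and granulocytes, whereas the RNA came from the whole tissue. A lower level of a transcript in such bulk RNA cannot be separated into fewer cells of a type and less RNA per cell.

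Glycolysis splits glucose into pyruvate and yields ATP without oxygen, and lactate dehydrogenase with the monocarboxylate transporters disposes of the product as lactate. Most steps are served by several genes. Skeletal muscle uses its own set, which includes the insulin-regulated transporter *Slc2a4*, phosphofructokinase *Pfkm*, fructose bisphosphatase *Fbp2*, mutase *Pgam2*, enolase *Eno3* and the glycogen phosphorylase *Pygm*, whereas most other cells rely on relatives such as *Slc2a1*, *Pfkl*, *Pgam1*, *Eno1* and *Pygb*. AMPK, a kinase activated by low cellular energy, promotes glucose uptake and glycolytic flux and restrains glycogen synthesis. The Achilles tendon inserts into calf muscle, so tissue around a cut tendon can hold muscle fibres as well as tendon cells, macrophages, blood and fat.

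The 6 libraries held between 18076805 and 19479887 reads. *Lyz2*, the gene into which Cre is inserted in LysM-Cre mice, was counted 7378, 7778 and 7372 times in the Control libraries and 9, 15 and 8 times in the LysM-Cre libraries, so the labels and the Cre locus went together in every library. The targeted gene *Prkaa1*, which encodes AMPKα1, had 740, 688 and 690 reads in Control and 626, 751 and 652 in LysM-Cre libraries, which overlap. Tendon markers were abundant, with 8 of 8 genes measured and a summed level between 53753 and 63003 CPM (reads of a gene scaled to a common library size after TMM normalisation). Most of this sum was *Col1a1*, at 44242 to 52594 CPM, whereas *Scx* stood at 101 to 141 CPM. Skeletal muscle content differed widely between libraries of the same group. The summed level of 28 contractile genes was 260, 806 and 4160 CPM in Control libraries 1 to 3 and 4342, 1501 and 12581 CPM in LysM-Cre libraries 1 to 3, and all 28 were measured. These sums overlap between the groups, with 0 of the 28 genes past an adjusted p of 0.05 by edgeR or DESeq2 and 2 at an unadjusted p under 0.05 by edgeR, but the highest library belonged to the LysM-Cre group and both of the lowest to Control. Within pairs of the same replicate number all 28 genes were higher in the LysM-Cre library in 3 of 3 pairs, a share not counted over all genes. In the edgeR fit that blocks on this number all 28 had an unadjusted p under 0.05, against 7.64% of all genes on the higher side. Of the 28, 0 passed an adjusted p of 0.05 in that fit (smallest 0.0525). These genes rose and fell together over the libraries, so they do not count as 28 separate results. The labels number the libraries without naming pairs.

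Across the 14261 genes tested with edgeR's quasi-likelihood test, 128 (0.898%) passed an adjusted p of 0.05, of which 47 (0.33%) were higher and 81 (0.568%) lower in LysM-Cre tendon. A fit that also blocked on replicate number called 47 (0.33%). Of the 40 members, 39 could be tested, and 0 passed in either fit, with *Slc16a3* nearest at an adjusted p of 0.0737. DESeq2 called 1 member, *Slc16a3*. At an unadjusted p under 0.05, 8 of 39 members (20.5%) were higher in LysM-Cre tendon, against 5.97% of all genes, and 5 (12.8%) were lower, against 8.55% of all genes. With the block these counts were 16 and 3, against 7.64% and 8.31% of all genes, and once a score of skeletal muscle genes entered the fit as a covariate they were 5 and 3, against 4.87% and 6.23%. The median log2 fold change (LysM-Cre over Control) of the tested members was 0.20, beside -0.00 over all genes. It was 1.00 over the 9 muscle isoforms and 0.15 over the other 30 tested members. The muscle class was assigned by hand with results known. *Gys1* and *Phka1*, which other tissues also express, had log2 fold changes of 0.41 and 0.01. Leaving both out raised the median to 1.58 over 7 genes. *Slc2a4*, which fat cells also use, was kept at 0.60, so the median depends on which genes are put in the class.

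The muscle isoforms showed the largest differences of the list and also the largest spread. A log2 fold change above 1 was found in 5 of the 39 tested members (*Fbp2*, *Pygm*, *Pgam2*, *Eno3* and *Phkg1*, the last at 1.00), against 2.12% of all genes. *Fbp2*, which removes a phosphate from fructose bisphosphate and so runs against phosphofructokinase, stood at 0.212, 0.601 and 3.51 CPM in Control and at 8.92, 1.51 and 15.6 CPM in LysM-Cre libraries. Control library 3 lay above LysM-Cre library 2, so the groups overlap. These values rest on 4, 11 and 64 reads in Control and on 171, 28 and 288 reads in LysM-Cre libraries, and the 4 reads of Control library 1 have an exact 95% Poisson interval of 1.09 to 10.2 reads, which covers counting error only. The log2 fold change was 2.59 (SE 1.07), with an adjusted p of 0.335 by edgeR and 0.147 with the block. Without Control library 3 it was 4.4 and without LysM-Cre library 3 it was 1.86, with adjusted p of 0.188 and 0.586. *Fbp1*, the liver and kidney isoform, was too low to be tested, with 7, 15 and 8 reads in Control and 3, 4 and 19 reads in LysM-Cre libraries.

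*Pygm*, which releases glucose phosphate from muscle glycogen, measured 8.41, 16.4 and 75.0 CPM in Control and 92.5, 20.0 and 225 CPM in LysM-Cre libraries. The muscle enolase *Eno3* measured 17.9, 29.4 and 124 CPM against 142, 41.9 and 330 CPM. The muscle mutase *Pgam2* measured 3.49, 5.74 and 43.7 CPM against 35.7, 11.3 and 114 CPM. In all 3 genes Control library 3 stood with the LysM-Cre libraries and LysM-Cre library 2 stood below it. Their log2 fold changes were 1.76 (SE 1.02) for *Pygm*, 1.58 (SE 0.91) for *Eno3* and 1.6 (SE 1.10) for *Pgam2*, with edgeR adjusted p of 0.491, 0.490 and 0.567. Leaving out Control library 3 took them to 3.18, 2.86 and 3.54, and leaving out LysM-Cre library 3 to 0.76, 0.69 and 0.42. *Pfkm*, the muscle phosphofructokinase, was measured at 44.6, 50 and 91.6 CPM in Control and 99.9, 54.9 and 197 CPM in LysM-Cre libraries, a log2 fold change of 0.92 (SE 0.48, adjusted p 0.446). *Phkg1*, the catalytic subunit of muscle phosphorylase kinase, was measured at 0.847, 1.53 and 7.29 CPM in Control and 4.80, 1.41 and 13.1 CPM in LysM-Cre libraries. Its log2 fold change of 1.00 (SE 0.97, adjusted p 0.698) became 2.44 without Control library 3 and -0.05 without LysM-Cre library 3.

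*Slc2a4*, the transporter that insulin brings to the surface of muscle and fat cells, measured 8.25, 8.41 and 16.7 CPM in Control and 14.7, 6.54 and 29.3 CPM in LysM-Cre libraries, with a log2 fold change of 0.60 (SE 0.54, adjusted p 0.671). Its lowest library, LysM-Cre library 2, was also the lowest in 6 adipocyte markers, which summed to between 195 and 366 CPM in Control and to between 66.4 and 247 CPM in LysM-Cre libraries. All 6 of these markers were measured, and their part in the *Slc2a4* values was not tested. The remaining muscle isoforms differed less. *Gys1*, which builds glycogen in muscle and many other tissues, ranged from 23.8 to 36.0 CPM in Control and from 29.0 to 50.2 CPM in LysM-Cre libraries (log2 fold change 0.41, SE 0.24, adjusted p 0.491). *Phka1*, a regulatory subunit of phosphorylase kinase, ranged from 34.3 to 38.2 CPM in Control and from 35.2 to 38.8 CPM in LysM-Cre libraries, with a log2 fold change of 0.01 (SE 0.07).

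The libraries of several members stood in the order of their muscle content. When the 6 libraries were ranked by the mean log2 CPM of the 28 contractile genes, from Control library 1 through Control library 2, LysM-Cre library 2, Control library 3 and LysM-Cre library 1 to LysM-Cre library 3, the same order was found in *Pfkm*, *Fbp2*, *Aldoa*, *Tpi1*, *Eno3* and *Pygm*. These are 6 of 39 tested members (15.4%), against 169 of all genes tested (1.19%). The other 5 muscle isoforms departed from this order. With the muscle score as a covariate, 8 of the 9 muscle isoforms changed the sign of their log2 fold change, among them *Pygm* to -0.26, *Eno3* to -0.19, *Pgam2* to -0.41 and *Phkg1* to -0.90, and their median was -0.19. *Fbp2* kept a positive value of 0.69 (adjusted p 0.582). A value of this size was not particular to *Fbp2*. *Pdk4*, another gene of the pathways, had a log2 fold change of 2.23 and kept 0.71 with the covariate. Of the contractile genes, *Myh7* kept 0.91 and *Tnnc1* 0.63, while others were negative and the median of the 28 was -0.02. Within pairs of the same replicate number 6 of the 9 muscle isoforms (*Pfkm*, *Fbp2*, *Pgam2*, *Eno3*, *Pygm* and *Gys1*) were higher in LysM-Cre in 3 of 3 pairs, a share not counted over all genes. With the block these 6 had an unadjusted edgeR p under 0.05, against 7.64% of all genes on the higher side. Of the 6, 0 passed an adjusted p of 0.05 (smallest 0.144).

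**Figure D1:**
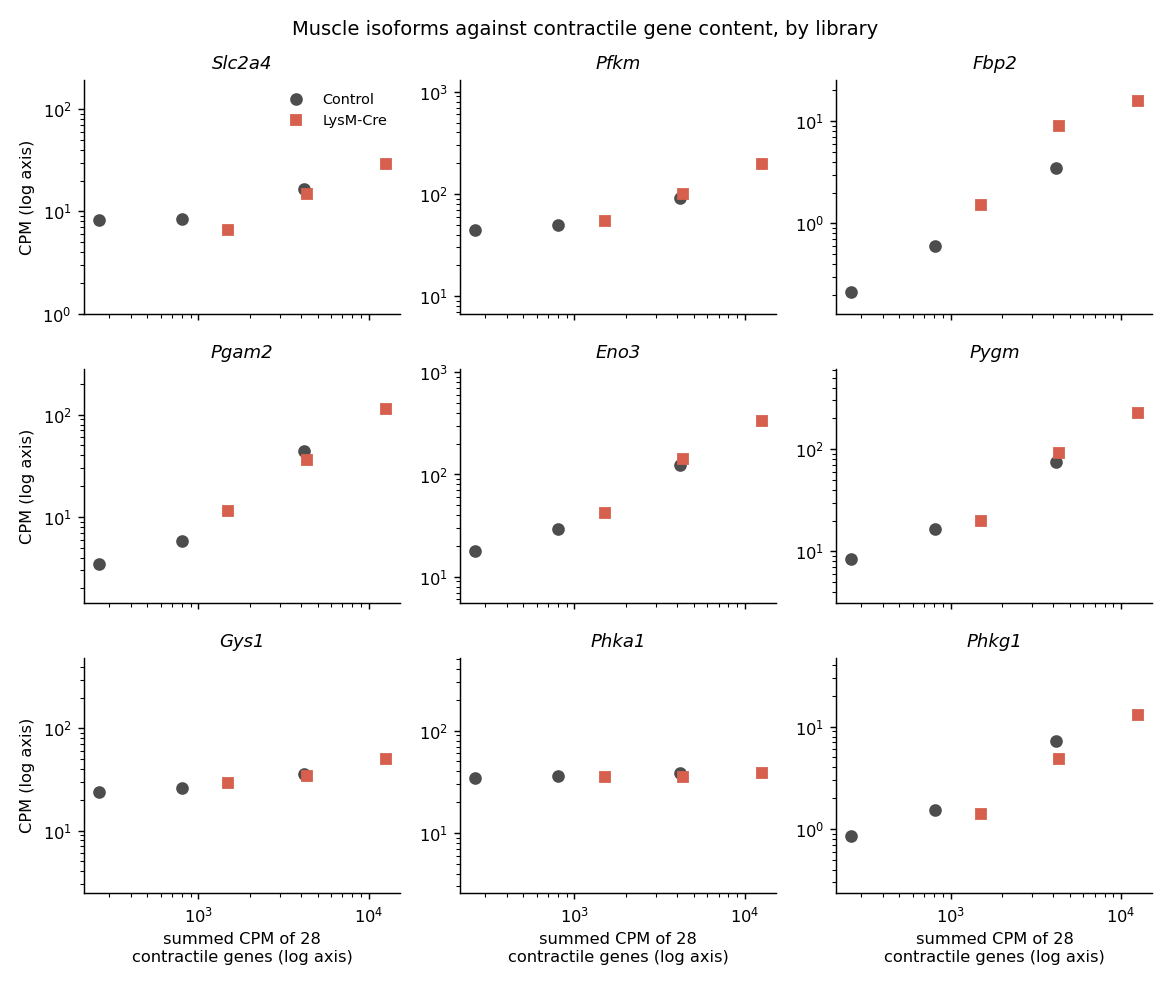
CPM of the 9 muscle isoforms (vertical, log axis) against the summed CPM of 28 contractile genes (horizontal, log axis) in each Control (circles) and LysM-Cre (squares) library. Control library 3 and LysM-Cre library 1, at 4160 and 4342 CPM of contractile genes, lie beside each other in most panels, and in the *Fbp2* panel they lie apart, at 3.51 and 8.92 CPM. *Mylk2*, one of the 28 contractile genes, also differed between these libraries, at 4.72 and 12 CPM.

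Dividing each muscle isoform by the contractile sum of its own library, a comparison chosen after seeing the data, gave *Fbp2* values of 0.815, 0.745 and 0.844 CPM per 1000 CPM of contractile genes in Control and 2.05, 1.01 and 1.24 in LysM-Cre libraries. All 3 LysM-Cre libraries were above all 3 Control libraries, with means of 0.801 ± 0.0505 and 1.43 ± 0.549 (SD, n = 3), and a two-sided exact permutation test gave p = 0.1, the smallest that 3 against 3 libraries allow (0.333 after adjustment over 10 such ratios). At these read numbers LysM-Cre library 2 was not separable from Control, since the exact 95% Poisson intervals of the *Fbp2* ratio were 0.222 to 2.09, 0.372 to 1.33 and 0.65 to 1.08 in the Control libraries and 0.671 to 1.46 in LysM-Cre library 2. The intervals of LysM-Cre libraries 1 and 3, at 1.76 to 2.39 and 1.1 to 1.39, lay above that of Control library 3 and overlapped that of Control library 1, and the interval of LysM-Cre library 3 also overlapped that of Control library 2. *Phkg1* went the opposite way, at 3.26, 1.90 and 1.75 in Control and 1.10, 0.937 and 1.04 in LysM-Cre libraries (exact permutation p = 0.1, adjusted 0.333). The ratios of the other 7 muscle isoforms overlapped between the groups. For *Pgam2* they were 13.4, 7.12 and 10.5 in Control and 8.21, 7.53 and 9.04 in LysM-Cre libraries, and for *Pygm* 32.4, 20.3 and 18 against 21.3, 13.3 and 17.9.

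Bases before an annotated start are given for the 3 genes with the largest log2 fold changes among those that followed the muscle order. E-boxes are marked in them, the letters CANNTG bound by MyoD and related muscle factors, among other factors. The sequences are RefSeq windows of 250 bases before an annotated start (GRCm38.p6), with CANNTG in capitals. They are read 5′ to 3′ in the direction of the gene. The *Eno3* window lies inside the gene, which begins upstream of it at position 70653125.
*Fbp2*, chr13:62858401-62858650, minus strand: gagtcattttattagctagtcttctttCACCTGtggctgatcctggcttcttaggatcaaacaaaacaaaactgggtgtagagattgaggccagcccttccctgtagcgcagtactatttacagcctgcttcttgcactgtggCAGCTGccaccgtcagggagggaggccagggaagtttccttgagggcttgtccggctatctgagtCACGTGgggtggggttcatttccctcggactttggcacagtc
*Pygm*, chr19:6384158-6384407, plus strand: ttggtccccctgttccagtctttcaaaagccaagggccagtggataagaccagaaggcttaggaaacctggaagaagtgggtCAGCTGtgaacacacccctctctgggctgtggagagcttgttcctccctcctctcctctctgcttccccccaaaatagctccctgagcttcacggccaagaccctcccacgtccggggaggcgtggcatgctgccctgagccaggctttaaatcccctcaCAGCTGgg
*Eno3*, chr11:70656926-70657175, plus strand: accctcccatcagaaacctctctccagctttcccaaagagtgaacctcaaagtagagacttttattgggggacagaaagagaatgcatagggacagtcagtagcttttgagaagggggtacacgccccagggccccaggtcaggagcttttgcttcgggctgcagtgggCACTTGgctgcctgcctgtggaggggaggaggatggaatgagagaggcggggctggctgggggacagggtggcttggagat
The motif reads the same on both strands. It occurred 3 times in the *Fbp2* window, 2 times in that of *Pygm* and 1 time in that of *Eno3*. At least 1 match was found in 10 of 11 windows of muscle isoforms (a gene can have several starts) and in 26 of 44 windows of the other members, against 66.2% of 32851 mouse windows of the same length. The consensus of MEF2, another muscle factor, was in 1 of the 11 and 1 of the 44 windows, against 2.92% of all windows. *Slc2a3* and *Slc2a4* had no window in the table.

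Shares of a step, taken from TPM (a level corrected for the length of each transcript, with a common total over the libraries), followed the same libraries. *Pgam2* made up 4.30%, 6.97% and 39.4% of the TPM of both mutases in Control and 31.3%, 11.7% and 58.8% in LysM-Cre libraries. *Eno3* made up 4.62%, 7.40% and 28.9% of the enolases in Control and 26.8%, 9.93% and 46.5% in LysM-Cre libraries. *Pygm* made up 5.14%, 9.91% and 34.5% of the glycogen phosphorylases in Control and 35.9%, 11.6% and 60% in LysM-Cre libraries. In each step Control libraries 1 and 2 and LysM-Cre library 2 had the lowest muscle shares, and the groups overlap. The share of *Fbp2* among fructose bisphosphatases was 39.6%, 45.9% and 90.3% in Control and 98.5%, 88.9% and 94.6% in LysM-Cre libraries. The means were 58.6 ± 27.6% and 94.0 ± 4.82% (SD, n = 3), with Control library 3 above LysM-Cre library 2 (two-sided exact permutation p = 0.2, 0.583 after adjustment over 35 shares). The share of *Pfkm* was 45.7 ± 12.7% in Control and 56.9 ± 16.1% in LysM-Cre libraries, and that of *Slc2a4* was 23.5 ± 6.66% and 29.5 ± 17.9% (SD, n = 3 in each group).

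**Figure D2:**
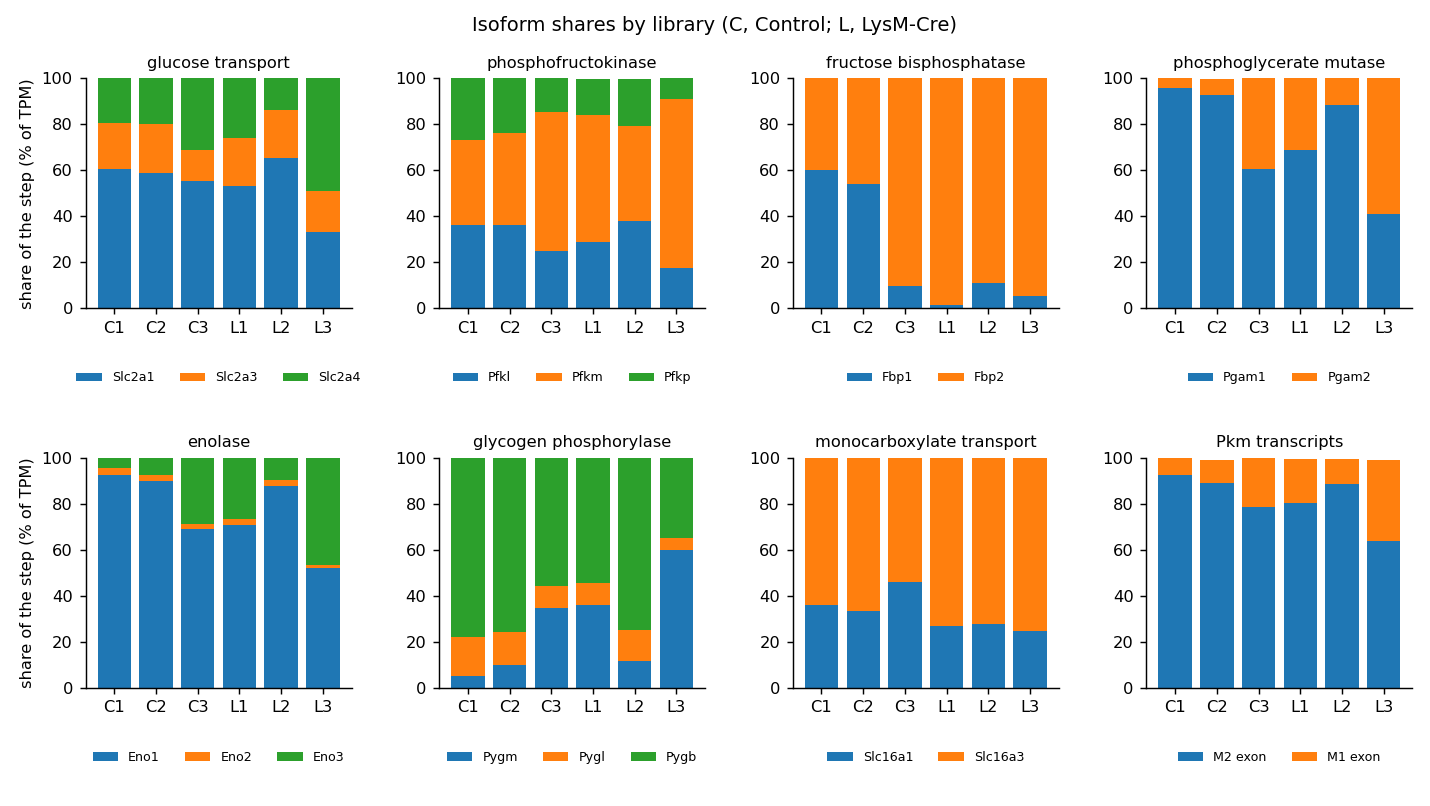
Share of each isoform in the summed TPM of its step (vertical, percent) in Control libraries 1 to 3 (C1 to C3) and LysM-Cre libraries 1 to 3 (L1 to L3), with the share of 2 *Pkm* transcripts in the last panel. The muscle isoforms take their largest shares in L3, C3 and L1, whereas *Slc16a3* takes a larger share in each LysM-Cre library (72.3% to 75.4%) than in any Control library (54.1% to 66.5%).

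*Pkm*, pyruvate kinase, has alternative exons that are spliced in a mutually exclusive way, with the M1 exon used in muscle and brain and the M2 exon in proliferating and most other cells. Both exons are shown because the transcripts differ there and the data separate them. They lie on the plus strand of chromosome 9 in GRCm38, each as coding exon 9 of its transcript, and capitals mark the positions that differ between them.
M1 exon, chr9:59675029-59675195: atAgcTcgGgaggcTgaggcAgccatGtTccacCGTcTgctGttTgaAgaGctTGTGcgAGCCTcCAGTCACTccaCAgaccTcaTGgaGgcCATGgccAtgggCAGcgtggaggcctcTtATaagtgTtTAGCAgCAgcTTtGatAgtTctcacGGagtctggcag
M2 exon, chr9:59675568-59675734: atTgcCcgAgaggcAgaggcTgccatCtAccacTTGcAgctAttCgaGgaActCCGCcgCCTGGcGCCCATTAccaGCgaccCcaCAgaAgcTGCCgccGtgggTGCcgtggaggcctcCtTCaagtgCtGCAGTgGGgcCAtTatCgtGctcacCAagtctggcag
The exons are each 167 bases long, differ at 64 positions and are 61.7% identical. The transcript with the M2 exon made up 86.6 ± 7.34% of *Pkm* TPM in Control and 77.5 ± 12.6% in LysM-Cre libraries (SD, n = 3). The transcript with the M1 exon took 7.43%, 10.1% and 21.6% in Control and 19.0%, 10.6% and 35.2% in LysM-Cre libraries, again highest in LysM-Cre library 3 and Control library 3. The difference of its means was 8.56 percentage points (two-sided exact permutation p = 0.4, adjusted 0.667). *Pkm* as a whole measured 480, 460 and 456 CPM in Control and 552, 479 and 651 CPM in LysM-Cre libraries, a log2 fold change of 0.27 (SE 0.11) with an adjusted p of 0.325 and 0.16 with the muscle score as a covariate.

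Enzymes of the common trunk were the most abundant members per length. In Control tendon *Gapdh* averaged 1667 TPM, *Aldoa* 728 TPM, *Ldha* 567 TPM, *Eno1* 521 TPM, *Pkm* 439 TPM and *Tpi1* 409 TPM. *Aldoa*, the aldolase of muscle and most other tissues, measured 377, 408 and 500 CPM in Control and 599, 420 and 857 CPM in LysM-Cre libraries (log2 fold change 0.55, SE 0.25, adjusted p 0.382), and 0.06 remained with the covariate. One of its predicted transcripts spanned a wider range than the gene, with 61.6, 66.1 and 183 TPM in Control and 312, 107 and 467 TPM in LysM-Cre libraries. *Aldoc*, the brain aldolase, stayed between 0.710 and 1.30 CPM in all libraries. *Tpi1*, which interconverts the triose phosphates, ranged from 244 to 279 CPM in Control and from 275 to 434 CPM in LysM-Cre libraries (log2 fold change 0.39, SE 0.16, adjusted p 0.322). *Gapdh*, which oxidises glyceraldehyde phosphate, ranged from 903 to 960 CPM and from 935 to 1520 CPM (0.39, SE 0.16, adjusted p 0.347). With the covariate the log2 fold changes were 0.12 and 0.13. *Gpi1*, which interconverts glucose and fructose phosphate, ranged from 214 to 230 CPM in Control and from 205 to 305 CPM in LysM-Cre libraries. Its log2 fold change of 0.27 (SE 0.14, adjusted p 0.455) became 0.43 with an adjusted p of 0.0389 when LysM-Cre library 2 was left out.

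A further set of members separated the groups. Of the 39 tested members, 8 (20.5%) were higher in every LysM-Cre library than in any Control library, against 8.94% of all genes, and 5 (12.8%) were lower in every one, against 11.4% of all genes. None of these 13 is in the muscle class, which was assigned by hand, and this does not show that muscle lacks them. Spearman's rho with the muscle score over the 6 libraries lay between 0.37 (*Pgam1*) and 0.71 (*Ldha*) for the 8 higher members. For the 5 lower ones it lay between -0.83 (*G6pdx*) and -0.37 (*Pfkfb3*). The score ranks the LysM-Cre libraries mostly above Control, so the sign of rho was fixed once members with separated groups were picked. These values therefore do not show that the 13 members follow muscle content. With the muscle score as a covariate all 13 kept their direction, a share not counted over all genes with separated groups. Since the 13 were picked for that separation, this does not show that they are independent of muscle content. The sizes moved both ways, from 0.18 to 0.08 for *Ldha* and from 0.45 to 0.52 for *Slc16a3*. None of the 13 passed an adjusted p of 0.05 by edgeR, whose smallest was 0.0737. DESeq2 called *Slc16a3* among them. With 3 against 3 libraries the two-sided exact permutation test gave p = 0.1 for each, its smallest value.

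*Slc16a3*, the exporter of lactate typical of glycolytic cells, was measured at 59.8, 57.0 and 49.5 CPM in Control and 71.4, 75.5 and 80.0 CPM in LysM-Cre libraries. Every LysM-Cre library exceeded every Control library. The log2 fold change was 0.45 (SE 0.08) with an edgeR adjusted p of 0.0737, 0.120 with the block and 0.117 with the muscle score as a covariate, where it was 0.52. DESeq2 gave the same log2 fold change with an adjusted p of 0.000764. Leaving out each library in turn kept it between 0.37 and 0.51, with adjusted p between 0.0888 and 0.237. *Slc16a1*, a widely expressed monocarboxylate transporter that also carries lactate into cells, measured 63.7, 55.1 and 80.7 CPM in Control and 50.2, 55.6 and 50.3 CPM in LysM-Cre libraries, a log2 fold change of -0.35 (SE 0.14, adjusted p 0.300). Its groups overlap by a narrow margin, at 55.1 and 55.6 CPM. Of the TPM of both transporters, *Slc16a3* made up 64.2%, 66.5% and 54.1% in Control and 73.2%, 72.3% and 75.4% in LysM-Cre libraries. The shares do not overlap, with means of 61.6 ± 6.61% and 73.6 ± 1.59% (SD, n = 3, two-sided exact permutation p = 0.1, 0.583 after adjustment over 35 shares). *Ldha*, the lactate dehydrogenase isoform that favours lactate formation, measured 362, 378 and 374 CPM in Control and 389, 392 and 483 CPM in LysM-Cre libraries (log2 fold change 0.18, SE 0.09, adjusted p 0.432), and 0.08 remained with the muscle score as a covariate. *Ldhb*, typical of oxidative tissue, ranged from 13.2 to 32.9 CPM and from 17.0 to 35.0 CPM, so that it made up 6.86 ± 3.18% and 7.72 ± 1.96% (SD, n = 3) of lactate dehydrogenase TPM.

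**Figure D3:**
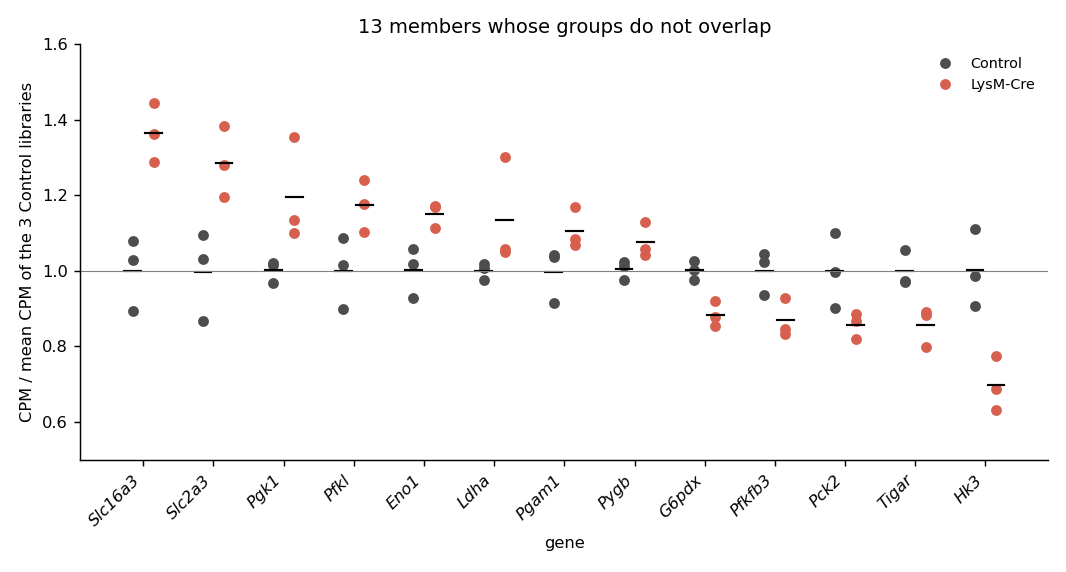
CPM of each library divided by the mean CPM of the 3 Control libraries (vertical) for the 13 members whose groups do not overlap, with Control in grey, LysM-Cre in red and the group means as short lines. *Slc16a3* stands highest and *Hk3* lowest relative to Control, and for *Ldha* and *Pgk1* 1 LysM-Cre library lies well above the other 2.

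Within the trunk, further members outside the muscle class differed by small amounts that did not pass the adjusted test. The bulk RNA does not show which cells they came from. *Pfkl*, the liver-type phosphofructokinase, measured 57.9, 61.9 and 51.2 CPM in Control and 70.7, 67.1 and 62.9 CPM in LysM-Cre libraries (log2 fold change 0.23, SE 0.08, adjusted p 0.269). *Pgk1*, which makes the first ATP of the pathway, measured 196, 195 and 186 CPM against 211, 218 and 260 CPM (0.26, SE 0.09, adjusted p 0.239). *Eno1*, the ubiquitous enolase, measured 388, 403 and 354 CPM against 446, 424 and 445 CPM (0.20, SE 0.07, adjusted p 0.224). All 3 were above Control in every LysM-Cre library. *Pgam1*, the non-muscle mutase, measured 198, 199 and 175 CPM in Control and 204, 223 and 207 CPM in LysM-Cre libraries, with a log2 fold change of 0.15 (SE 0.07, adjusted p 0.402). With the muscle score as a covariate *Pfkl*, *Eno1* and *Pgam1* had log2 fold changes of 0.33, 0.23 and 0.25, close to or above those without it, and *Pgk1* had 0.21. *Pfkp*, the platelet-type phosphofructokinase, ranged from 28.2 to 39.3 CPM in Control and from 30.7 to 37.0 CPM in LysM-Cre libraries, and the neuronal enolase *Eno2* from 19.4 to 21.3 CPM and from 19.7 to 25.4 CPM.

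For glucose entry, *Slc2a3*, a high-affinity transporter of neurons and blood cells, was measured at 13.2, 14 and 11.1 CPM in Control and 17.7, 15.3 and 16.4 CPM in LysM-Cre libraries. Its log2 fold change was 0.36 (SE 0.12, adjusted p 0.213), and all 3 LysM-Cre libraries were the higher ones. *Slc2a1*, the basal transporter of most cells and the leading one here per length, measured 24.5, 24.2 and 27.7 CPM in Control and 27.5, 28.7 and 19.0 CPM in LysM-Cre libraries (log2 fold change -0.02, SE 0.16). Among the hexokinases, which trap glucose as its phosphate, *Hk1* led with 73.4, 70.9 and 74.2 CPM against 80.4, 69.9 and 78.1 CPM. *Hk2*, the inducible form found in muscle and fat, ranged from 18.9 to 19.9 CPM in Control and from 19.1 to 23.7 CPM in LysM-Cre libraries. *Hk3*, the hexokinase of myeloid cells, stood below every Control library in all LysM-Cre libraries, at 8.99, 9.78 and 11 CPM in Control and 7.67, 6.81 and 6.27 CPM in LysM-Cre libraries. Its log2 fold change was -0.52 (SE 0.13, adjusted p 0.139) and its share of hexokinase TPM was 12.5 ± 1.18% in Control and 8.58 ± 0.952% in LysM-Cre libraries (SD, n = 3, two-sided exact permutation p = 0.1, adjusted 0.583). Beside it, 10 macrophage and myeloid markers, all measured, summed to between 767 and 797 CPM in Control and between 448 and 622 CPM in LysM-Cre libraries. The markers did not share a direction, with 7 log2 fold changes below 0 and 3 above. *Csf1r*, *Mrc1*, *Adgre1* and *Cd163* were lower in every LysM-Cre library (0.644, 0.564, 0.696 and 0.577 times the Control mean), against 11.4% of all genes. *Itgam*, *Ptprc* and *Cd14* overlapped at 0.711, 0.878 and 0.774 times. *Mertk* was higher in every LysM-Cre library (1.16 times), against 8.94% of all genes, and *Cd68* and *Fcgr1* overlapped at 1.19 and 1.08 times. *Csf1r* and *Mrc1* make up most of the Control sum, and with it of the divisor used next. *Hk3* per 1000 CPM of these markers, a ratio chosen after seeing the data, was 11.5, 12.3 and 14.3 in Control and 13.3, 10.9 and 14 in LysM-Cre libraries, with means of 12.7 ± 1.45 and 12.8 ± 1.6 (SD, n = 3).

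The regulators and branch points had log2 fold changes near or below 0, except *Pfkfb2* at 0.16. *Pfkfb3*, the bifunctional enzyme whose strong kinase activity makes the activator of phosphofructokinase, led its family and measured 39.5, 36.1 and 40.3 CPM in Control and 35.8, 32.2 and 32.7 CPM in LysM-Cre libraries (log2 fold change -0.20, SE 0.07, adjusted p 0.264). Among its relatives, *Pfkfb2* of the heart was measured at 21.3 to 26.0 CPM in Control and 25.3 to 27.1 CPM in LysM-Cre libraries, *Pfkfb4* at 14.3 to 16.2 and 13.8 to 15.1 CPM, and *Pfkfb1* of the liver at 2.35 to 3.18 and 2.22 to 3.08 CPM. The share of *Pfkfb2* in the family was 22.0 ± 1.67% in Control and 25.9 ± 1.11% in LysM-Cre libraries, without overlap (SD, n = 3, two-sided exact permutation p = 0.1, adjusted 0.583). *Tigar*, which breaks the same activator down, measured 7.94, 7.32 and 7.29 CPM in Control and 6, 6.65 and 6.70 CPM in LysM-Cre libraries (log2 fold change -0.22, SE 0.12, adjusted p 0.445). *G6pdx*, the entry to the pentose phosphate pathway, measured 41.5, 42.5 and 40.4 CPM against 35.4, 38.1 and 36.3 CPM (-0.18, SE 0.06, adjusted p 0.216). *Pck2*, the mitochondrial PEP carboxykinase, measured 48.5, 53.5 and 43.8 CPM against 43.1, 39.8 and 42.1 CPM (-0.22, SE 0.08, adjusted p 0.287). Each of these last 3 genes was lower in all LysM-Cre libraries than in any Control library. Their unadjusted edgeR p were 0.0982 for *Tigar*, 0.0173 for *G6pdx* and 0.033 for *Pck2*, and none passed after adjustment over all genes.

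Of the glycogen phosphorylases, *Pygb*, the brain-type form, had the highest mean level per length in both groups (97.5 TPM in Control and 105 TPM in LysM-Cre libraries). *Pygb* measured 176, 174 and 168 CPM in Control and 194, 179 and 182 CPM in LysM-Cre libraries (log2 fold change 0.10, SE 0.06, adjusted p 0.468). Its groups do not overlap, but its share of phosphorylase TPM was 70.0 ± 12.3% and 54.8 ± 19.8% (SD, n = 3), beside the larger shares of *Pygm* in LysM-Cre libraries 1 and 3. *Pygl*, the liver phosphorylase, ranged from 20.6 to 26.8 CPM in Control and from 17.7 to 24.3 CPM in LysM-Cre libraries.

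**Figure D4:**
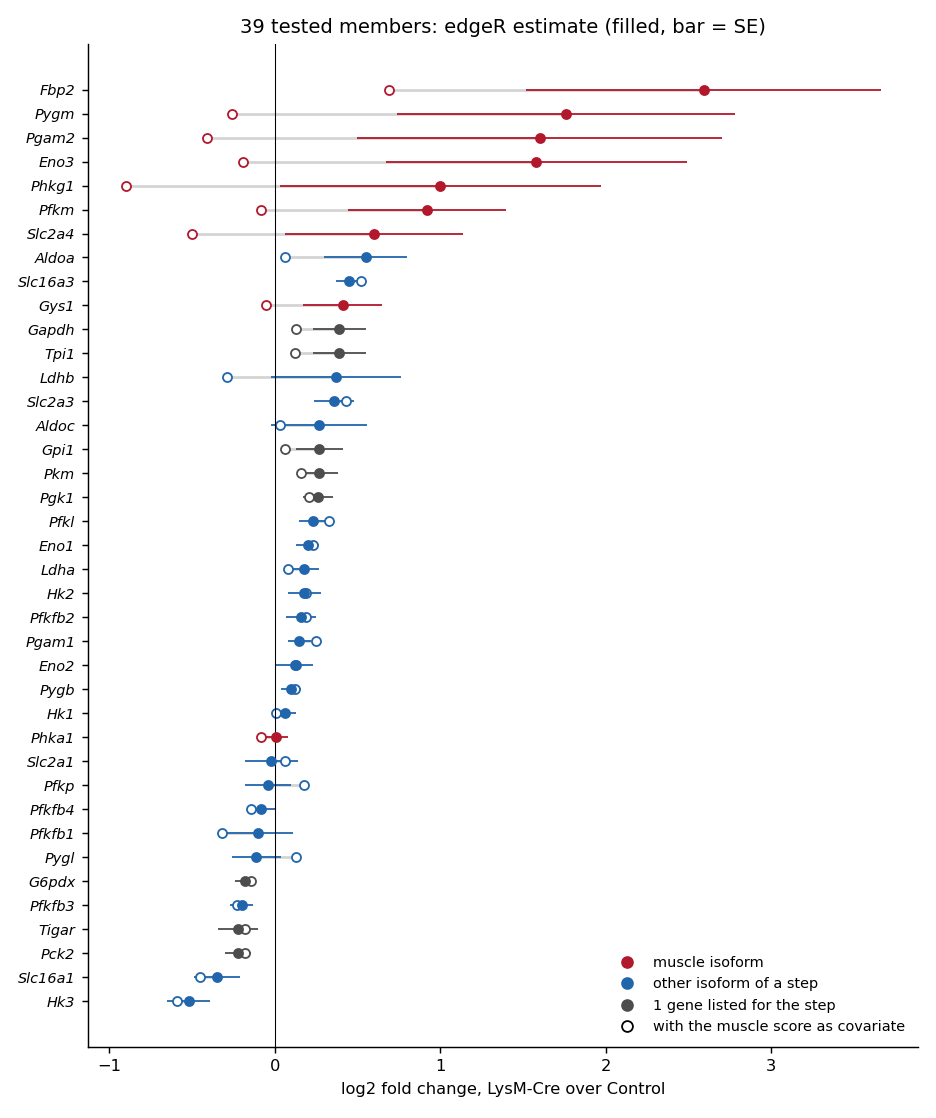
Log2 fold change (LysM-Cre over Control, horizontal) of the 39 tested members by edgeR, with filled points and bars of 1 SE for the main estimate and open points for the estimate with the muscle score as a covariate. The muscle isoforms in red span the widest range, up to 2.59 for *Fbp2*, and 8 of 9 lie below 0 with the covariate, whereas *Slc16a3* moves from 0.45 to 0.52.

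Another 63 genes of the same pathways were listed, of which 60 were in the table and 50 could be tested. By edgeR 0 of the 50 passed an adjusted p of 0.05 and by DESeq2 2 did (*Bpgm* and *Tkt*), with 5 higher and 7 lower at an unadjusted p under 0.05 by edgeR, against 5.97% and 8.55% of all genes, and their median log2 fold change was 0.07. The nearest was *Bpgm*, which makes the bisphosphoglycerate that loosens oxygen from haemoglobin, at 23.0, 23.2 and 28.3 CPM in Control and 17.6, 16.7 and 17.9 CPM in LysM-Cre libraries (log2 fold change -0.52, SE 0.10, adjusted p 0.0844). Erythroid markers moved with it. Of 10 such genes 9 were listed, and they summed to between 1998 and 2974 CPM in Control and between 676 and 983 CPM in LysM-Cre libraries, and their part in the *Bpgm* value was not tested. The pentose phosphate genes *Tkt*, *Rpia* and *Pgls* had log2 fold changes of -0.34, -0.35 and -0.18, in the direction of *G6pdx* (adjusted p 0.113, 0.190 and 0.197). *Pdk1*, which shuts pyruvate out of the mitochondrial dehydrogenase, had 0.30, the phosphorylase kinase subunit *Phkb* 0.25 and the lactate dehydrogenase *Ldhd* 0.61, with adjusted p of 0.181, 0.201 and 0.225. *Ppp1r3b*, which targets a phosphatase to glycogen, had -0.57 (adjusted p 0.201).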

How the data were processed

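RNA sequencing libraries of 3 Control and 3 *LysM-Cre; Ampkα1* fl/fl mice were used, each a separate mouse, with groups and replicate numbers from the labels. For 65053 RefSeq transcripts the authors deposited estimated counts, not normalised, and TPM, corrected for transcript length with a common total over the libraries. The submitters' processing notes name GRCm38.p6, and the aligner and counter are not given in the sources used here. FPKM, normalised counts and group averages were not used. Estimated counts were summed per gene and rounded. Sums recombine reads shared between transcripts of a gene. Isoform genes are less alike (*Fbp1* and *Fbp2* coding sequences were 70.1% identical, with a longest identical run of 23 bases), although reads could still be split between them.

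Tests used edgeR 4.0.16 in R 4.3.3 (TMM, filterByExpr, quasi-likelihood F test, Benjamini-Hochberg over 14261 genes), checked on simulated counts. Each SE was taken as the estimate over the root of its F statistic. Exact permutation tests used log2(CPM + 0.5) for genes and the logit for shares. Deviations of same-numbered libraries from their group means correlated at 0.184, 0.118 and 0.310, and only number 3 correlated best with its own number. The labels name no litter, batch or pair behind the numbers, so the pairing may be arbitrary. Fits that block on replicate number were therefore read beside the main ones and not in their place. Alternatives were DESeq2 1.42.0, other scaling factors and filters, a muscle score as covariate and leaving out each library. The isoform ratios to contractile or myeloid markers were added after seeing the data.

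The members, the muscle class (assigned by hand) and all lists were chosen with earlier results of these data known. All members are accounted for. Values per library were given for members whose groups do not overlap, the 10 with the largest change, the leading isoform of each step and both fructose bisphosphatases, and up to 8 other pathway genes were named by p. *Pdk4* was named in addition, beside *Fbp2*.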

Additional observations from a re-analysis of the deposited data

How the results depend on the processing

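The count of all genes past an adjusted p of 0.05 was 128, and it moved to 680 with DESeq2, 47 with the replicate block, 60 with the muscle score as covariate and 53 when an absolute log2 fold change of 1 or more was also required. Leaving out 1 library gave between 8 and 276 (10, 8 and 24 without Control libraries 1, 2 and 3, and 12, 276 and 60 without LysM-Cre libraries 1, 2 and 3). The count of members past it was 0 and became 1 with DESeq2 (*Slc16a3*), and leaving out 1 library gave between 0 and 1 (*Gpi1*, without LysM-Cre library 2). The replicate block changed the call of no member and of no other pathway gene named, and took the erythroid markers past the threshold from 6 to 1. Scaling by RLE or upper quartile, no filter and a minimum of 10 counts in every library left the counts within 1.5 times. The median log2 fold change of the members was 0.06 with the muscle score as covariate, and between 0.14 and 0.23 without 1 library.

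All 39 tested members kept their direction under DESeq2, RLE and the replicate block. With the muscle score as covariate 12 reversed, to 0.06 for *Slc2a1*, -0.50 for *Slc2a4*, -0.08 for *Pfkm*, 0.18 for *Pfkp*, -0.41 for *Pgam2*, -0.19 for *Eno3*, -0.29 for *Ldhb*, -0.26 for *Pygm*, 0.13 for *Pygl*, -0.05 for *Gys1*, -0.08 for *Phka1* and -0.90 for *Phkg1*, and the cause was not tested. Relative to the contractile genes 8 reversed, to -1.76 for *Slc2a4*, -1.38 for *Pfkm*, -0.28 for *Pgam2*, -0.55 for *Eno3*, -0.41 for *Pygm*, -1.79 for *Gys1*, -2.18 for *Phka1* and -1.11 for *Phkg1*. The divisor itself had a median log2 fold change of 1.86 over its 28 genes, so a gene that does not follow it turns negative by the division alone. *Phka1*, with a log2 fold change of 0.01 in CPM, is such a gene. These values therefore do not show less RNA per muscle fibre. Relative to the myeloid markers *Hk3* was at 0.01. Leaving out 1 library reversed 7 members, with ranges of -0.13 to 0.14 for *Slc2a1*, -0.07 to 1.02 for *Slc2a4*, -0.17 to 0.05 for *Pfkp*, -0.24 to 0.02 for *Pfkfb1*, -0.20 to 0.02 for *Pygl*, -0.04 to 0.05 for *Phka1* and -0.05 to 2.44 for *Phkg1*. Of the shares, *Slc2a4* ranged from -3.75 to 13.9 and *Ldhb* from -0.347 to 2.66 percentage points.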
